A study of Sus scrofa with 6 samples.

Results

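Fibroblast growth factor (FGF) ligands and their receptors were followed in piglet lung across birth. The genes were 6 ligands, FGF1, FGF2, FGF7, FGF9, FGF10 and FGF18, and the 4 receptors FGFR1, FGFR2, FGFR3 and FGFR4. They were chosen by gene symbol, and 8 of the 10 were matched to a row among the 14579 mRNAs of the deposited table. FGF2 and FGF7 were not matched to an identifier in it and were not analysed here. Not all identifiers of the table had a symbol, so both genes may be in it unnamed. Lung tissue came from 6 female Tibetan-Meishan hybrid piglets, the sires Tibetan and the dams Meishan. The prenatal group, called fetal in the study, held 3 piglets taken on the last day before birth, and the neonatal group held 3 piglets taken 2 days after birth. Each piglet came from a different sow, the labels name no treatment, and 1 library was made per piglet. Birth and age therefore change together between the groups and cannot be told apart. Litter differs between all 6 piglets and cannot be told apart from the piglet. The study mentions caesarean and parturition without saying which applied to which piglet.

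FGFs are secreted proteins that bind receptor tyrosine kinases together with heparan sulfate on the cell surface, and the activated receptor signals through adaptors to the RAS-MAPK cascade. Sprouty proteins and dual-specificity phosphatases restrain that cascade, and ETS factors of the ETV group are among its transcriptional targets. In the lung, mesenchymal FGF10 acts on epithelial FGFR2 during branching, FGF9 comes from mesothelium and epithelium, and FGF18 from mesenchyme is known for its part in distal lung and alveolar growth. FGFR3 and FGFR4 together are known to be needed for normal alveolar septation in mice.

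Values are FPKM (fragments mapped to a transcript, scaled by its length and by the mapped reads of the library), as computed by the authors. Since length is taken into account, levels of different genes are set side by side. This rests on the transcript lengths used by the authors, which were not checked. The study gives the mapped reads of each library, but the table used here holds no read counts or transcript lengths, so the number of fragments behind a value was not worked out. The SD printed with a mean is the spread between the 3 piglets of a group, and no error of single values is given. Differences were tested in limma on log2(FPKM + 1) over all 14579 mRNAs, with Benjamini-Hochberg adjustment, and genes with an adjusted p up to 0.05 are called past the threshold. A difference on this scale understates the change of genes with low FPKM. The lung markers SFTPA1, SFTPB, SFTPC and AGER were at 371 FPKM or more in each library, and NKX2-1 was not matched to an identifier. The summed FPKM of a library ran from 339491 in prenatal 2 to 777982 in neonatal 3. The median log2 difference of all mRNAs, neonatal minus prenatal, was 0.13 as deposited, -0.01 after median-of-ratios scaling and -0.36 when libraries were scaled to equal sums, that is to the same total FPKM, so small differences are read against this shift.

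FGF18 rose and was the member with the largest difference. It was low before birth, at 0.590, 0.996 and 0.606 FPKM in prenatal 1, 2 and 3, and reached 5.41, 7.89 and 7.95 FPKM in neonatal 1, 2 and 3. All neonatal values lay far above all prenatal values, with neonatal 1 the lowest of its group. The means were 0.731 ± 0.230 and 7.09 ± 1.45 FPKM (SD, n = 3 each), so that the neonatal mean was 9.70 times the prenatal mean. The log2 difference was 2.22 (standard error 0.22, 95% interval 1.70 to 2.73, adjusted p = 0.00373 in limma), the 163rd largest rise in the table. In bulk tissue, more or fewer cells of a type and more or less RNA per cell cannot be told apart.

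Of the 8 members measured, 1 was past the threshold. Among all mRNAs 6.87% were past it in either direction, 5.41% as higher in the neonatal group and 1.45% as lower. At an unadjusted p under 0.05 there were 2 members, FGF1 and FGF18, against 24.2% of all mRNAs. With 1 call among 8, the share of members called is not set apart from that of all mRNAs. The call of FGF18 held under each of the 8 other settings with all libraries, with an adjusted p between 0.00264 and 0.0135, and with any of the 6 libraries left out, with an adjusted p between 0.0168 and 0.0313.

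**Figure D1:**
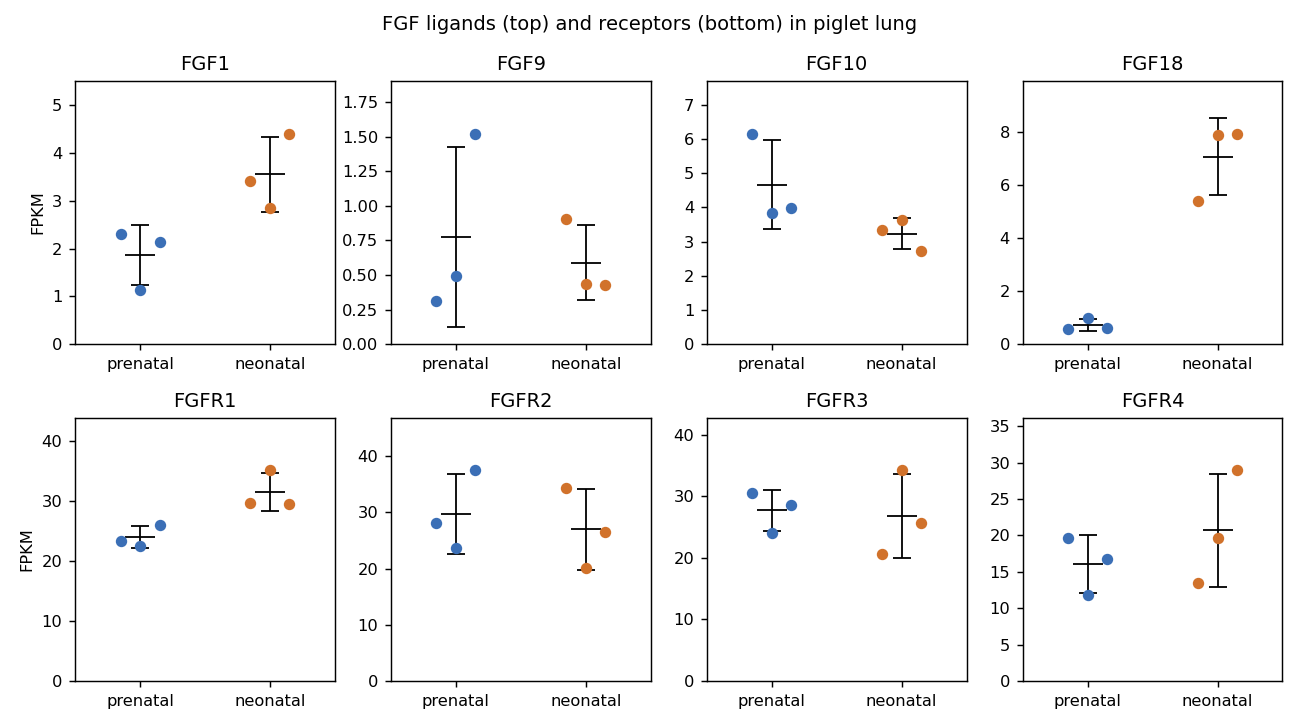
FPKM (vertical axis, from 0) of the 4 ligands in the top row and the 4 receptors in the bottom row, with 1 point per piglet and the mean ± SD of the 3 piglets of a group in black. FGF18 is separated widely between the groups, FGF1 and FGF10 narrowly and in opposite directions, and the groups overlap for FGF9, FGFR2, FGFR3 and FGFR4.

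FGF1, the acidic FGF that binds all the FGF receptors, stood at 2.31, 1.14 and 2.15 FPKM in prenatal 1, 2 and 3 and at 3.42, 2.84 and 4.41 FPKM in neonatal 1, 2 and 3. The groups did not overlap, but the distance between the highest prenatal and the lowest neonatal value was small. The log2 difference was 0.68 (95% interval 0.10 to 1.26), with an adjusted p of 0.152 in limma, so FGF1 was not past the threshold.

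FGF10, the mesenchymal ligand of branching, went the other way in its means, from 4.66 ± 1.29 to 3.22 ± 0.451 FPKM (SD, n = 3 each). It had 6.15, 3.85 and 3.98 FPKM in prenatal 1, 2 and 3 and 3.32, 3.62 and 2.73 FPKM in neonatal 1, 2 and 3. The groups did not overlap, with prenatal 1 well above the rest and the other prenatal values close to neonatal 2. The log2 difference was -0.40 (95% interval -0.93 to 0.12, adjusted p = 0.310 in limma), and it was -0.22 without prenatal 1.

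FGF9 had the lowest mean of the members over the 6 libraries, at 0.313, 0.493 and 1.52 FPKM in prenatal 1, 2 and 3 and 0.907, 0.436 and 0.429 FPKM in neonatal 1, 2 and 3. Within each group 1 library, prenatal 3 and neonatal 1, stood above the other 2, and the groups overlapped. The log2 difference of -0.11 (95% interval -0.81 to 0.58) turned to 0.17 without prenatal 3.

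The receptors were at higher FPKM than the measured ligands in every library. The lowest receptor value was 11.8 FPKM, for FGFR4 in prenatal 2, and the highest ligand value was 7.95 FPKM, for FGF18 in neonatal 3. By its mean over the 6 libraries, each receptor exceeded between 81.1% and 87.9% of the mRNAs in the table, whereas FGF18 exceeded 38.9% and FGF9 10.1%.

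FGFR1, which is expressed mainly in mesenchymal cells of the lung, was at 23.3, 22.5 and 26.0 FPKM in prenatal 1, 2 and 3 and at 29.7, 35.1 and 29.5 FPKM in neonatal 1, 2 and 3. Each neonatal value lay above each prenatal value, by a small margin. The log2 difference of 0.38 (95% interval -0.02 to 0.77) had an adjusted p of 0.223 in limma, and it was -0.19 when libraries were scaled to equal sums.

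FGFR2, the epithelial receptor of FGF10 in its IIIb form, had 28.2, 23.6 and 37.5 FPKM in prenatal 1, 2 and 3 and 34.3, 20.0 and 26.6 FPKM in neonatal 1, 2 and 3. The groups overlapped almost fully, and the spread within a group was wider than the distance between the means. The log2 difference was -0.14 with a 95% interval of -0.75 to 0.46, so changes of that size were not detectable. The values are per gene and do not separate the IIIb from the IIIc form.

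FGFR3 stood at 30.5, 24.0 and 28.6 FPKM in the prenatal and at 20.7, 34.2 and 25.6 FPKM in the neonatal libraries, in the order of their numbers. Both the lowest and the highest value were neonatal. FGFR4 had 19.6, 11.8 and 16.8 FPKM in the prenatal and 13.4, 19.7 and 28.9 FPKM in the neonatal libraries, with neonatal 3 alone above the prenatal range by more than 1 FPKM. Its log2 difference was 0.043 without neonatal 3 and 0.57 without neonatal 1. The log2 differences were -0.07 for FGFR3 (95% interval -0.59 to 0.46) and 0.31 for FGFR4 (95% interval -0.41 to 1.03). None of the 4 receptors was past the threshold in limma, and 0 had an unadjusted p under 0.05.

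In 4 of the 8 members the groups did not overlap, 3 with the neonatal group higher (FGF1, FGF18 and FGFR1) and 1 with it lower (FGF10), against 30.5% of all mRNAs in either direction, 20.9% with the neonatal group higher and 9.64% with it lower. The median log2 difference of the 8 members was 0.12, beside 0.13 for all mRNAs.

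The order of the ligands changed with the group. Before birth FGF10 was the highest of the 4 ligands in each library, followed by FGF1, and FGF18 was below both in all 3. After birth FGF18 was the highest in all 3 libraries. FGF10 was then above FGF1 in 1 of 3 libraries, so that these neighbours were not separated. The ratio of FGF18 to FGF10 within a library, which does not depend on scaling between libraries, was 0.0960, 0.259 and 0.152 in prenatal 1, 2 and 3 and 1.63, 2.18 and 2.91 in neonatal 1, 2 and 3. This ratio was picked after the values were seen.

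As shares of the summed FPKM of the 4 ligands, FGF18 took 6.30%, 15.4% and 7.35% in prenatal 1, 2 and 3 and 41.4%, 53.4% and 51.2% in neonatal 1, 2 and 3. FGF10 took 65.7%, 59.4% and 48.2% before birth and 25.4%, 24.4% and 17.6% after it. The groups did not overlap for either share. The differences of 39.0 and -35.3 percentage points each had p = 0.1 in a two-sided exact permutation test, the smallest that 3 against 3 allows, and p = 0.4 after adjustment over the 8 shares. A sum without FGF18 was added once the values were known. In it the FGF10 share was 64.1% ± 10.5 and 44.0% ± 8.19 (SD, n = 3 each), with overlap between the groups and p = 0.2 in the exact test. FGF1 in that sum went from 25.1% ± 3.81 to 48.1% ± 8.99 (SD, n = 3 each) without overlap, with p = 0.1 in the exact test. That is again the smallest p possible, and the tests in this sum were not adjusted. The summed FPKM of the 4 ligands was 8.03 ± 1.46 before and 14.5 ± 1.26 after birth (SD, n = 3 each), with an exact two-sided p of 0.1.

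**Figure D2:**
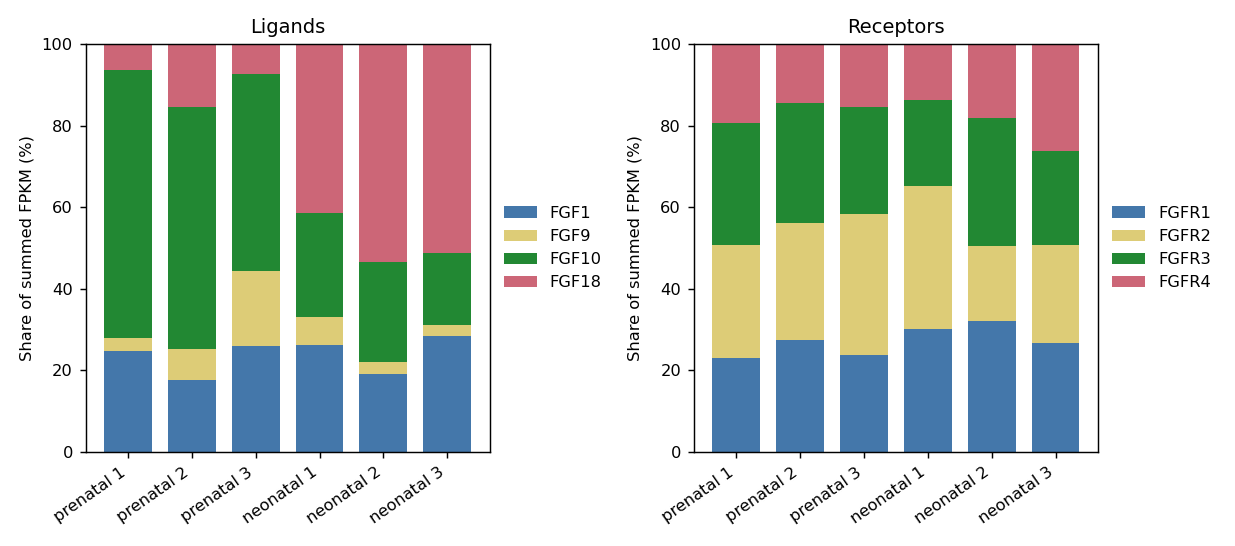
Share in percent of the summed FPKM of the 4 measured ligands (left) and of the 4 receptors (right), with 1 stacked bar per library. FGF18 takes between 6.30% and 15.4% of the ligand sum in the prenatal libraries and between 41.4% and 53.4% in the neonatal ones, whereas the receptor shares overlap between the groups.

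The summed FPKM of the 4 receptors was 97.5 ± 13.9 before and 105.9 ± 6.79 after birth (SD, n = 3 each), with an exact two-sided p of 0.5. Their shares overlapped between the groups for all 4, with exact two-sided p between 0.2 for FGFR1 and 0.7 for FGFR4. The FGFR4 share differed by 2.91 percentage points, and by -0.519 without neonatal 3. FGFR1 took 24.7% ± 2.39 before and 29.7% ± 2.78 after birth, and FGFR2 30.3% ± 3.60 and 25.8% ± 8.44 (SD, n = 3 each). The order among FGFR1, FGFR2 and FGFR3 was not firm, since FGFR2 was above FGFR3 in 3 of the 6 libraries. FGFR4 was below FGFR1 in all 6. FGFR1 was below FGFR3 in all 3 prenatal libraries, at ratios of 0.764, 0.936 and 0.907, and above it in all 3 neonatal libraries, at 1.43, 1.03 and 1.15. The smallest of these distances, in neonatal 2, is within the spread of either gene, and the pair was picked after the values were seen.

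Marker genes of lung cell types were read beside FGF18. Of 9 measured mesenchymal markers, 3 were past the threshold as higher in the neonatal group, against 5.41% of all mRNAs. They were the smooth muscle genes ACTA2 and TAGLN and the lipid droplet gene PLIN2. In 7 of the 9 the groups did not overlap, all with the neonatal group higher, against 20.9% of all mRNAs. Of the 9, 8 had a positive log2 difference, and the median was 0.74. The summed level of the list went from 1176 to 1564 FPKM before birth to 2105 to 2982 FPKM after it. Without ACTA2, TAGLN and PLIN2 the sum of the other 6 was 897 to 1134 FPKM before and 1200 to 1534 FPKM after birth. Per 1000 FPKM of all 9 mesenchymal markers, FGF18 stood at 0.377, 0.847 and 0.396 in prenatal 1, 2 and 3. In neonatal 1, 2 and 3 it stood at 2.57, 2.65 and 2.76, again without overlap. Ratios of FGF18 to marker sums, and marker sums without named genes, were not planned in advance. All 7 measured genes of dividing cells were past the threshold as higher, against the same 5.41% of all mRNAs. Their summed mean in the neonatal group was 8.11 times the prenatal one. Per 100 FPKM of these 7 genes, FGF18 stood at 4.39, 8.49 and 3.91 before and at 5.50, 7.20 and 6.51 after birth, with overlap. In 5 of 6 immune markers the groups did not overlap, all with the neonatal group higher, and the median log2 difference was 1.04. Past the threshold as higher were 2 of the 6, S100A8 and S100A9. The summed range of the list was 52.1 to 87.7 FPKM before and 341 to 471 FPKM after birth. These 2 calprotectin genes carried most of the neonatal sum, and the other 4 summed to 16.7 to 30.1 FPKM before and 33.8 to 55.9 FPKM after birth. PLIN2, S100A9 and, among the genes of dividing cells, CCNA2 took their symbols from the study's own list of changed genes, which favours genes that differ. Without them 2 of 8 mesenchymal, 1 of 5 immune and 6 of 6 dividing-cell genes were past the threshold as higher.

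None of 11 epithelial, 6 endothelial and 2 mesothelial markers was past the threshold in limma, against 6.87% of all mRNAs in either direction. At an unadjusted p under 0.05 there were 4, 2 and 0, against 24.2% of all mRNAs. Summed levels of the lists, prenatal and then neonatal, were 5215 to 6175 and 6809 to 12446 FPKM for epithelium. For endothelium they were 415 to 519 and 591 to 851 FPKM, and for mesothelium 58.3 to 77.4 and 33.1 to 68.9 FPKM. SFTPC carried most of the epithelial sum, with a mean of 3508 FPKM of 5618 before and 6373 of 9410 after birth. Of the 11 epithelial markers 10 had a positive log2 difference. In 6 of the 11 the groups did not overlap, 5 with the neonatal group higher and 1, EPCAM, with it lower. EPCAM fell from 46.5 to 29.4 FPKM in its means. Among endothelial markers 2 of 6 did not overlap, 1 in each direction, and among mesothelial markers 0 of 2. The shares of all mRNAs were 30.5% in either direction, 20.9% as higher and 9.64% as lower. The endothelial sum without CLDN5 was 217 to 254 FPKM before and 214 to 235 FPKM after birth, and the list had a median log2 difference of -0.03. SFTPA1, CLDN5 and MSLN also took their symbols from the study's list of changed genes. Of the mesothelial pair MSLN carried nearly all of the sum, and WT1 was listed at 0 or below 1 FPKM in every library. The part of these markers in the result for FGF18 was not tested.

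Around the members, 54 of 88 listed genes of the pathway were matched by symbol and so measured. Of these, 3 were past the threshold, all higher in the neonatal group and all among the heparan sulfate genes, against 6.87% of all mRNAs in either direction. Their median log2 difference was 0.20. In 20 of the 54 the groups did not overlap, 13 with the neonatal group higher and 7 with it lower, beside 30.5%, 20.9% and 9.64% of all mRNAs. KL and SDC4 were measured through symbols from the study's list of changed genes.

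Heparan sulfate, which holds FGFs at the cell surface and forms part of the receptor complex, was represented by 22 of 26 listed genes for core proteins and for chain synthesis and trimming. SDC1, the main epithelial syndecan, had 25.9, 15.5 and 16.2 FPKM in prenatal 1, 2 and 3 and 34.1, 52.0 and 47.5 FPKM in neonatal 1, 2 and 3. SDC3, another syndecan, had 15.4, 11.7 and 13.3 FPKM before birth and 26.6, 27.0 and 25.5 FPKM after it. HS6ST1, which adds 6-O-sulfate to the chains, had 15.6, 11.2 and 15.3 FPKM before and 24.8, 24.9 and 33.1 FPKM after birth. In none of the 3 did the groups overlap. They were 3 past the threshold of 22 measured, against 6.87% of all mRNAs in either direction.

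The log2 differences were 1.19 for SDC1 (standard error 0.26, adjusted p = 0.0391 in limma), 0.93 for SDC3 (standard error 0.17, adjusted p = 0.0229) and 0.93 for HS6ST1 (standard error 0.21, adjusted p = 0.0417). SDC4 was the syndecan with lower neonatal values, at 47.8 ± 12.4 and 30.3 ± 5.51 FPKM (SD, n = 3 each), and its log2 difference of -0.63 had an adjusted p of 0.171. It passed under quantile normalization, at 0.0241, as did HS2ST1 and NDST3, which carry out other sulfation steps and were lower too. The median log2 difference of the 22 genes was 0.33, and 14 had a positive one. In 11 of the 22 the groups did not overlap, 8 with the neonatal group higher and 3 with it lower. The shares of all mRNAs were 30.5%, 20.9% and 9.64%. An unadjusted p under 0.05 in limma was reached by 11 of the 22, against 24.2% of all mRNAs. All 3 calls were lost without prenatal 1, prenatal 2, prenatal 3, neonatal 2 or neonatal 3, and without neonatal 1 SDC1 and SDC3 passed. The log2 differences with 1 library left out were 1.06 to 1.41 for SDC1, 0.84 to 1.02 for SDC3 and 0.79 to 1.01 for HS6ST1. Calls over all mRNAs fell too, from 1001 to between 196 and 397 in these 5 fits and to 944 without neonatal 1. SULF2, which trims 6-O-sulfate, passed as higher without prenatal 3. HS6ST1 also missed the threshold without a variance trend, at 0.0510. When libraries were scaled to equal sums, none of the 3 risen genes passed, and SDC4, HS2ST1 and NDST3 passed as lower.

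**Figure D3:**
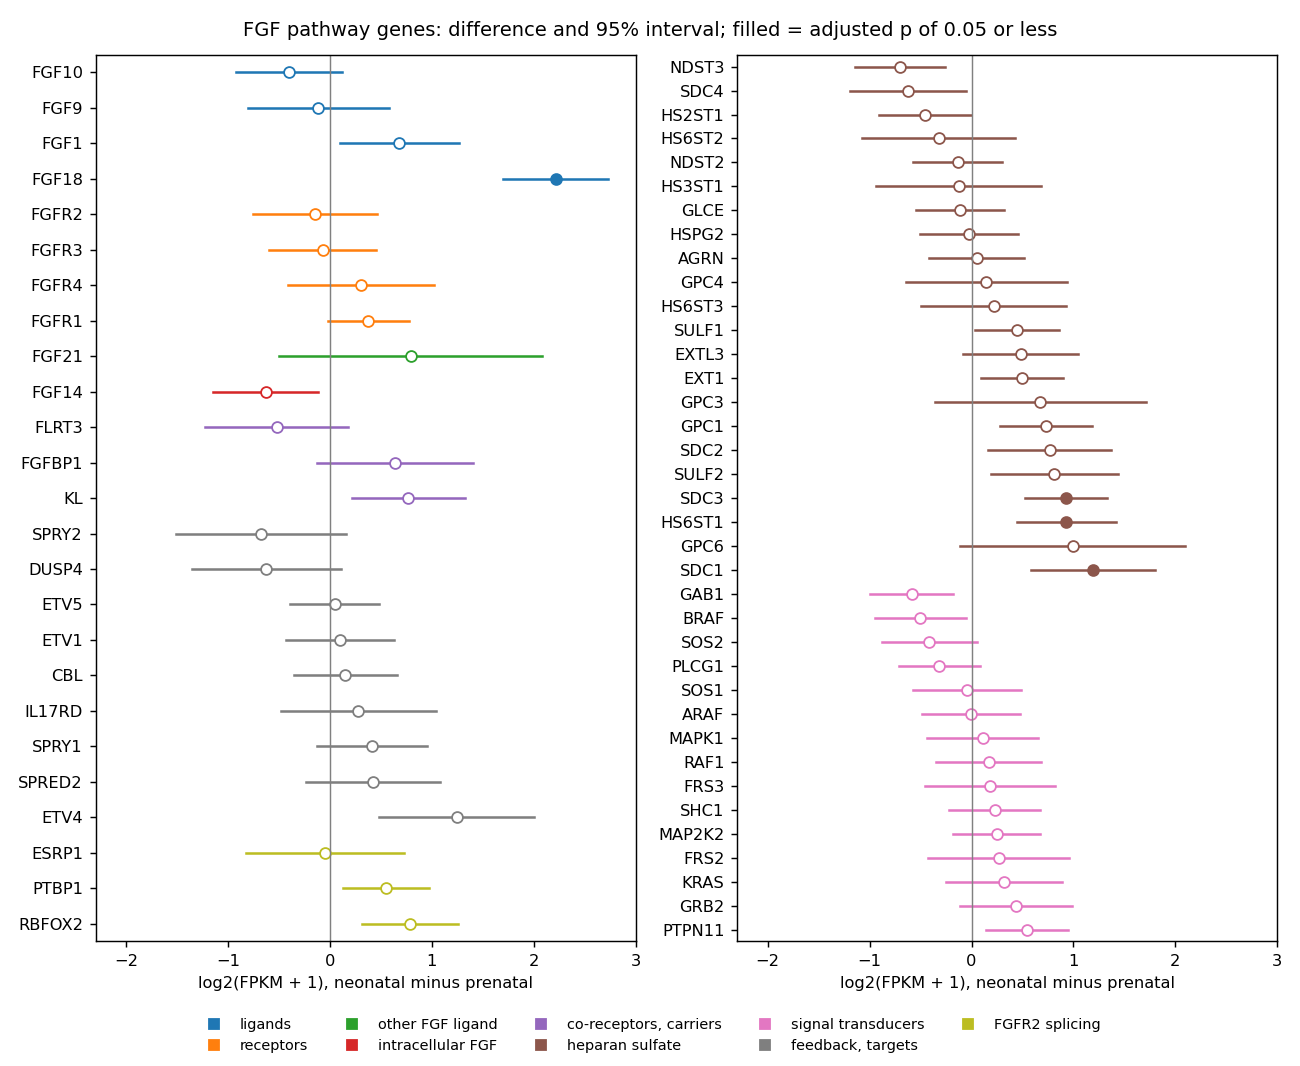
Difference in log2(FPKM + 1), neonatal minus prenatal (horizontal axis), with its 95% interval for the 8 members and the 54 other measured genes, coloured by list. Filled points are past the threshold, which are FGF18 and the heparan sulfate genes SDC1, SDC3 and HS6ST1.

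Among 15 measured adaptors and signal transducers, 0 genes were past the threshold in limma, against 6.87% of all mRNAs. An unadjusted p under 0.05 was reached by 3 of the 15, against 24.2% of all mRNAs. The median log2 difference of the 15 was 0.17. The largest differences were those of GAB1, a docking adaptor, and PTPN11, the phosphatase SHP2 that carries the signal to RAS. GAB1 went from 7.19 ± 0.788 to 4.44 ± 0.287 FPKM (SD, n = 3 each; log2 difference -0.59, adjusted p = 0.0935) and passed as lower after median-of-ratios scaling, at 0.0461, and quantile normalization, at 0.0411. PTPN11 went from 12.1 ± 1.83 to 18.05 ± 0.333 FPKM (SD, n = 3 each; log2 difference 0.55, adjusted p = 0.111), a difference that was -0.0040 when libraries were scaled to equal sums.

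The feedback inhibitors and targets gave 0 genes past the threshold of 9 measured in limma, against 6.87% of all mRNAs. An unadjusted p under 0.05 was reached by 1 of the 9, against 24.2% of all mRNAs. The median log2 difference of the 9 was 0.15. ETV4, a target of the cascade in lung epithelium, had 0.352, 0.468 and 0.799 FPKM in prenatal 1, 2 and 3 and 1.26, 3.15 and 4.06 FPKM in neonatal 1, 2 and 3, without overlap and with neonatal 1 nearest to the prenatal values. Its log2 difference was 1.24, with an adjusted p of 0.0670 in limma. That p was 0.0285 without neonatal 1 and between 0.124 and 0.218 with any other library left out. Under the other settings with all libraries it was between 0.0582 and 0.0872. ETV5, its close relative, was at 8.45 ± 1.17 and 8.74 ± 1.11 FPKM (SD, n = 3 each), a log2 difference of 0.05 with a 95% interval of -0.39 to 0.48. SPRY2, an inhibitor of the cascade, was at 10.0 ± 2.39 and 6.32 ± 3.34 FPKM (SD, n = 3 each; log2 difference -0.67, adjusted p = 0.291).

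Few other FGFs were matched by symbol, and those not matched may be in the table unnamed. FGF21 was the one matched of 12 other secreted FGFs listed. It was at 4.15 FPKM in neonatal 2 and below that in the others, with 0 listed for prenatal 3 and neonatal 3. FGF14, an intracellular FGF that does not act through the receptors, had means of 0.723 ± 0.239 and 0.111 ± 0.152 FPKM (SD, n = 3 each) and an adjusted p of 0.138. KL, the klotho co-receptor of endocrine FGFs, was at 0.487 ± 0.387 and 1.49 ± 0.139 FPKM (SD, n = 3 each; adjusted p = 0.104). FGFBP1, a carrier that releases FGFs from the matrix, was listed at 0 in the 3 prenatal libraries and in neonatal 2. Of the splicing regulators that choose between the forms of FGFR2, ESRP1 had a log2 difference of -0.05, RBFOX2 of 0.79 (adjusted p = 0.0625) and PTBP1 of 0.55 (adjusted p = 0.118).

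The mRNAs most like FGF18 over the 6 libraries, by Pearson r on log2(FPKM + 1), were CKAP4 and MMD, with r of 0.995 each, and TMPRSS2, a membrane protease of epithelia, with r of 0.994. CKAP4 went from 9.60 ± 0.863 to 31.3 ± 1.75 FPKM and MMD from 3.93 ± 0.191 to 14.0 ± 2.63 FPKM (SD, n = 3 each). An r above 0.95 was reached by 368 of 8710 mRNAs with a symbol and a mean above 1 FPKM, and such a coefficient reflects the step between 2 groups of libraries. For FGFR1, the receptor with the largest difference, they were GPRC5A, TEDC2 and S100A14, with r of 0.997, 0.996 and 0.996. With FGFR1 an r above 0.95 was reached by 102 of the 8710.

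**Figure D4:**
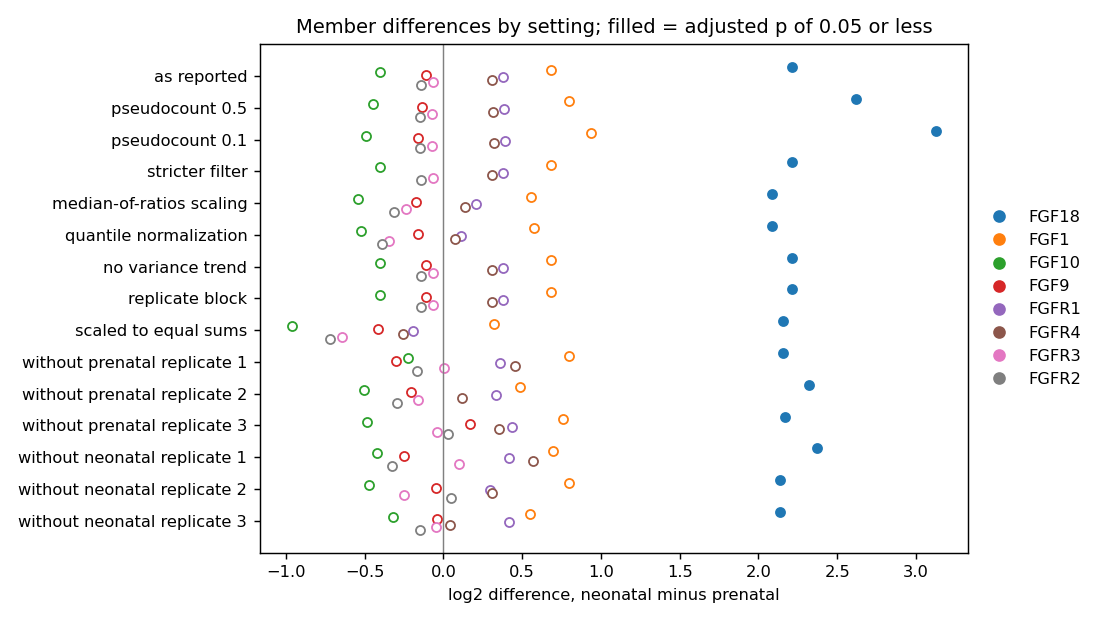
Log2 difference, neonatal minus prenatal (horizontal axis), of the 8 members under each setting and with each library left out (rows). FGF18 stays past the threshold (filled points) in every row, between 2.09 and 3.12, and the other members are open points on both sides of 0.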

How the data were processed

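The deposited mRNA table holds FPKM, which the authors computed with Cufflinks 2.2.1 from quality-filtered reads of Ribo-Zero strand-specific libraries, mapped to Sscrofa10.2 with TopHat 2.1.0. The authors kept mRNAs with FPKM above 0.5 in at least 1 sample, which all 14579 met. The 6 value columns of this table were matched to samples by name, and the lncRNA table was not used. Symbols came from a reference table for 9478 identifiers and from the study's list of changed genes, held in part, for 362, of which 8 were among the 103 listed genes measured. The rest of the 14579 identifiers had no symbol, so a listed gene without a match is not shown to be absent.

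Values were fitted as log2(FPKM + 1) with limma version 3.58.1 under R version 4.3.3, using its variance trend and the group as the only term; the fit was tested on simulated data. Shares were compared with exact permutation tests in scipy 1.17.1 (Python 3.11.15). All members were named, as were, per pathway list, up to 6 genes past the threshold with the largest change, or the 2 largest where none passed. The 3 mRNAs most correlated with 1 ligand and 1 receptor were named too. SDC4, SULF2, CLDN5, HS2ST1, NDST3, ETV5 and ESRP1 were named after their values were seen. Members and lists were chosen with earlier results of these data known. Alternatives were pseudocounts of 0.5 and 0.1, a filter that asks for more than 1 FPKM in 3 samples, quantile and median-of-ratios scaling, no trend, blocking on the replicate number, and leaving out each sample. Scaling to equal sums, with a total of 1000000 per library, and ligand shares without FGF18 were added after the data were seen. That total is above the largest deposited sum, 777982 in neonatal 3, so the added 1 weighs less in that fit. The ratios of FGF18 to marker sums and the marker sums without named genes were not planned either.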

Additional observations from a re-analysis of the deposited data

How the results depend on the processing

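Over all alternatives the count of FGF members past the threshold stayed at 1, with any sample left out too. The heparan sulfate count of 3 became 6 under quantile normalization (3 higher and 3 lower) and ran from 0 to 2 with 1 sample left out. Signal transducers gave 1 call, GAB1, after median-of-ratios, quantile and equal-sum scaling. Feedback genes gave 1, DUSP4, under equal sums, and between 0 and 1 with 1 sample left out. Equal sums turned FGFR1 to -0.19, FGFR4 to -0.26, PTPN11 to -0.0040 and PTBP1 to -0.029. With 1 sample left out, FGF9 ran from -0.30 to 0.17, FGFR2 from -0.33 to 0.046, FGFR3 from -0.25 to 0.10 and FGFR4 from 0.043 to 0.57. As shares of summed log2(FPKM + 1), the differences were 1.35 points for FGFR1, -18.8 for FGF10 and 23.5 for FGF18. Without FGF18 in the sum they were 23.0 for FGF1 and -20.1 for FGF10. The cause of these changes was not tested. Scaling to equal sums moved the share of higher calls from 78.8% to 29.2%, quantile normalization to 57.9% and median-of-ratios to 66.0%.

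Same-numbered samples did not deviate together (r between -0.04 and 0.00 over the mRNAs), so the replicate numbers do not pair the piglets. With the replicate number as a block, 401 mRNAs were past the threshold in place of 1001, FGF18 stayed past it at an adjusted p of 0.0135, and the heparan sulfate count was 0. Without read counts, values near 0 carry an unknown counting error.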
